A study of Mus musculus with 12 samples.

Results

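The BCL2 family decides at the outer mitochondrial membrane whether a cell lives or undergoes apoptosis. Described here are 10 of its genes among the 23479 rows of a normalized read count table: the pro-survival genes Mcl1, Bcl2, Bcl2l1 (BCL-XL) and 3 copies of Bcl2a1 (A1), the death activators Bcl2l11 (BIM) and Bid, and the membrane-permeabilizing effectors Bax and Bak1. They were taken by name as family members, with earlier results of these data known. Each was found and passed the minimum level for testing. Pro-survival members hold the effectors and activators in a groove on their surface. Activators such as BIM and BID fill that groove or engage BAX and BAK, and free BAX and BAK open the outer membrane and release cytochrome c. In myeloid cells MCL1 is a short-lived protein on which neutrophils rely, and A1 is known as an inducible survival gene of granulocytes and monocytes.

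The cells were myeloid-derived suppressor cells, a mix of immature monocytes and neutrophils that accumulates in tumour-bearing hosts, from spleens of C57BL/6 mice that all carried B16 melanomas larger than 25 mm2. Monocytic cells (M-MDSC) and neutrophil-like polymorphonuclear cells (PMN-MDSC) were sorted by flow cytometry. Mice were untreated (Ctrl) or had received cyclophosphamide, an alkylating agent, with fludarabine, a purine analogue. This lymphodepleting treatment is called LD here, and those spleens were taken at day 7 after it. Population and treatment give 4 groups of 3 libraries each (replicates 1, 2 and 3). The age, sex and number of mice and any pooling are not given in the sources used here, nor are the sort markers, so each population is a sorted mixture named by its label.

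Between 8906045 and 16242926 reads per library fell on genes. The labelled cell types showed in most of their markers. Ccr2, the monocyte chemokine receptor, averaged 12866 and 10989 normalized counts in M-MDSC Ctrl and LD against 374 and 302 in PMN-MDSC. Cxcr2, the neutrophil chemokine receptor, averaged 25.3 and 56.6 against 29542 and 30074. Of 10 monocyte markers, limma called 9 higher and 1 lower in M-MDSC in Ctrl, and 8 higher and 1 lower in LD. Over all genes tested, 38.8% were called higher in each. Cd14 went against the label, at 157.4 and 174.7 in M-MDSC Ctrl and LD against 584.7 and 1154 in PMN-MDSC. All 12 neutrophil markers were lower in M-MDSC in both comparisons. Replicate 1 of both LD groups stood apart from the other LD libraries, with values of 42.7 and 41.5 on the second principal component, where the other LD libraries had 9.2 to 20.6. Counts of LD calls and the members that passed are therefore also given without those libraries.

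The sequences below show what the members have in common and where the A1 copies part. Of the 10 genes, 7 hold exactly 1 match to the core of the BH3 helix, the segment that binds the groove: a leucine, any 3 residues, a glycine and an aspartate. The coding strand around it is printed 5′ to 3′ from GENCODE M21 transcripts (build GRCm38, the assembly also called mm10), with the 6 core codons in capitals.
Mcl1: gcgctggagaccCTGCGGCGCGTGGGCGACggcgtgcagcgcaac
Bcl2: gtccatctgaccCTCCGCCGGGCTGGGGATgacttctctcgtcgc
Bcl2l1: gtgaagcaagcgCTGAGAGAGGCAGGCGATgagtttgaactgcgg
Bcl2l11: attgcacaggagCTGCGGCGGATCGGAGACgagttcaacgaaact
Bax: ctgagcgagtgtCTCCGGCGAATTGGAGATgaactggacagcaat
Bak1: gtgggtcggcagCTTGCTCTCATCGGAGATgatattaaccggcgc
Bid: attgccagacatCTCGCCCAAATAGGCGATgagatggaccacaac
The core spans codons 194 to 199 of 331 in Mcl1, 94 to 99 of 236 in Bcl2, 90 to 95 of 233 in Bcl2l1 and 150 to 155 of 196 in Bcl2l11. It spans codons 63 to 68 of 192 in Bax, 76 to 81 of 209 in Bak1 and 90 to 95 of 195 in Bid. The 3 Bcl2a1 copies, of 172 codons each, have 0 matches to this exact pattern, which says only that these residues are not in that order there.

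The A1 copies lie on chromosome 9, at chr9:88956900-88962419 (Bcl2a1a, plus strand), chr9:89199209-89207827 (Bcl2a1b, plus strand) and chr9:88723285-88731914 (Bcl2a1d, minus strand). Their 516-base coding sequences are 97.9% identical between Bcl2a1a and Bcl2a1b (11 mismatches), 98.6% between Bcl2a1a and Bcl2a1d (7) and 98.8% between Bcl2a1b and Bcl2a1d (6). Of the 12 positions that differ in any pair, 7 fall in the first 150 bases, which are printed here because they carry most of what a read could use to tell the copies apart. The differing bases are in capitals.
Bcl2a1a: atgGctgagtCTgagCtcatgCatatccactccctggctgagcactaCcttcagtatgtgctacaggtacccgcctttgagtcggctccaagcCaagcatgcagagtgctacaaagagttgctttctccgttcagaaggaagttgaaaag
Bcl2a1b: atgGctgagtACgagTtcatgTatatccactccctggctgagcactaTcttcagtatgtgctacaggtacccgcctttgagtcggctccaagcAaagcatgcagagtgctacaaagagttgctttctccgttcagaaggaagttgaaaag
Bcl2a1d: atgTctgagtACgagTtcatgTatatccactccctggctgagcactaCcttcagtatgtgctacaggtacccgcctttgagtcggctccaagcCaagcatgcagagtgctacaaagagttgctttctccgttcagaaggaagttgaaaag
Most 50-base stretches of these transcripts occur in another gene as well: 69.0% of those of Bcl2a1a, 79.2% of Bcl2a1b and 79.5% of Bcl2a1d, chiefly in the other copies and in Gm29094. Gm29094 is a protein-coding gene annotated over Bcl2a1b on the same strand, and it has no row in the count table. For Mcl1 and Bcl2l1 that share is 0%, and for Bcl2l11 it is 0.1%. The sources used here do not say how reads that match several copies were counted, so the value of each A1 copy is uncertain and the sum of the 3 is given beside it.

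Mcl1 dominated the family in every group. Levels can be compared between genes only per length, so normalized counts were divided by the merged exon length in kilobases. On this scale Mcl1 stood at 3242 ± 100.6 in M-MDSC Ctrl, 3135 ± 334 in M-MDSC LD, 13331 ± 80.6 in PMN-MDSC Ctrl and 9064 ± 45 in PMN-MDSC LD (mean ± SD, n = 3 throughout). No other single row exceeded a mean of 438 per kilobase in any group, with the 3 A1 copies kept as separate rows. Below it the order depended on the population. In M-MDSC the effector Bak1 came second among single rows, at 342 ± 50.9 in Ctrl and 409 ± 92.3 in LD. The A1 copies stood at 262, 214 and 111 in M-MDSC LD, so the place there holds only with A1 split into 3 rows. In PMN-MDSC the activator Bid came second, at 408 ± 4.7 in Ctrl and 438 ± 83.4 in LD, with Bak1 next at 206 ± 47.9 and 329 ± 60.4.

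Bcl2 was the lowest of the 10 per kilobase in 3 groups, at 22.4 ± 1.8 in M-MDSC Ctrl, 4.2 ± 1.9 in PMN-MDSC Ctrl and 2.2 ± 1.7 in PMN-MDSC LD. In M-MDSC LD it was second lowest at 40.0 ± 6.1, beside Bcl2l1 at 35.7 ± 2.9, a gap smaller than its SD. Several neighbours in the order were not separated by more than their spread. In M-MDSC Ctrl these were Bcl2a1d (68.4 ± 13.9), Bcl2l11 (67.1 ± 1.9) and Bcl2a1b (65.6 ± 3.1). In PMN-MDSC LD they were Bcl2a1b (119 ± 15.7), Bcl2l11 (116 ± 6.1) and Bcl2l1 (111 ± 15.3). The Bcl2a1b copy moved from the seventh place in M-MDSC Ctrl to the third in M-MDSC LD, at 262 ± 59.2, followed by Bcl2a1d at 214 ± 70.4, and these 2 LD values again lay within their spread.

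**Figure D1:**
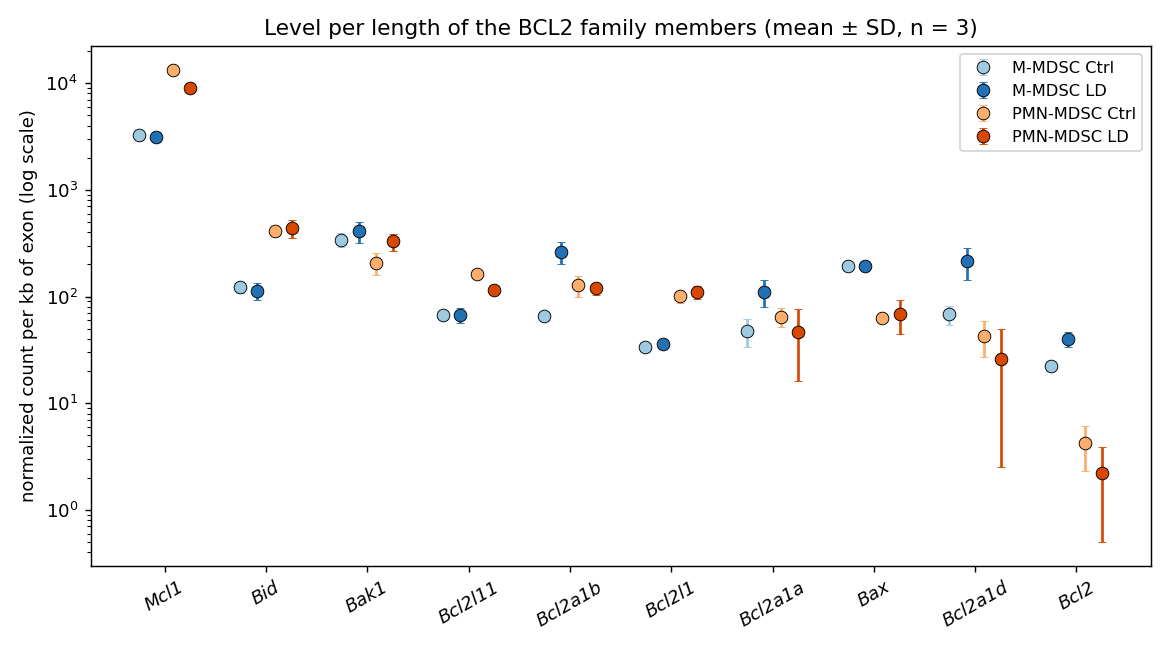
Mean normalized count per kilobase of merged exons for the 10 members in the 4 groups (log axis, bars show the SD of 3 libraries). Mcl1 is highest in every group. With the A1 copies drawn as 3 separate genes, the member below it is Bak1 in both M-MDSC groups and Bid in both PMN-MDSC groups.

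LD was compared with Ctrl within each population to ask which of these genes changed after lymphodepletion. In M-MDSC 1 of the 10 members changed: Bcl2a1b rose. With limma, 3.01% of the 11122 genes tested passed in this comparison (2.54% higher, 0.468% lower). Normalized counts of Bcl2a1b were 54.5, 50.7 and 55.5 in M-MDSC Ctrl and 268.0, 174.9 and 199.0 in M-MDSC LD. All 3 LD libraries lay above all 3 Ctrl libraries. The log2 difference was 1.96 ± 0.24 (SE), a 3.88-fold rise, with a limma adjusted p of 6.3e-04. Without replicate 1 of M-MDSC LD it was 1.78, with an adjusted p of 0.0024. In bulk RNA a change in the share of cells that express a gene and a change per cell cannot be told apart.

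The other A1 copies lay in the same direction without passing the test. Bcl2a1d had 48.0, 71.8 and 57.2 normalized counts in M-MDSC Ctrl and 254.3, 143.5 and 155.7 in M-MDSC LD, a log2 difference of 1.60 ± 0.49 with a limma adjusted p of 0.107. Bcl2a1a had 33.7, 51.7 and 30.9 against 121.0, 74.7 and 77.8, a log2 difference of 1.21 ± 0.53 with an adjusted p of 0.33. For both copies the groups did not overlap, and replicate 1 was the highest LD library. Bcl2a1d passed with edgeR (adjusted p = 0.047) and DESeq2 (0.00594) on the recovered reads, and both copies passed when replicate 1 of PMN-MDSC LD was left out of the shared estimate of spread (0.0151 for Bcl2a1d and 0.0414 for Bcl2a1a).

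Summing the copies sets aside in which of the 3 rows a read was counted. The sum cannot restore reads left uncounted because they match several genes, and how such reads were handled is not given. The sum was 136.2, 174.1 and 143.6 normalized counts in M-MDSC Ctrl and 643.3, 393.1 and 432.5 in M-MDSC LD. The groups did not overlap, and the log2 difference was 1.66 ± 0.21, a 3.16-fold rise with a limma adjusted p of 6.3e-04. Without replicate 1 of M-MDSC LD it was 1.45 (adjusted p = 0.0016), and without that of both LD groups 1.45 (9.5e-04). Bcl2a1b made up 29.1 to 40% of the sum in the M-MDSC Ctrl libraries and 41.7 to 46% in the M-MDSC LD libraries, and Bcl2a1d 35.2 to 41.2% and 36 to 39.5%.

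Bcl2, the founding survival gene of the family, also had LD libraries above every Ctrl library in M-MDSC. Its values were 194.6, 223.9 and 196.3 in Ctrl and 315.8, 356.6 and 426.6 in LD. The log2 difference of 0.83 ± 0.44 had a limma p of 0.082 and an adjusted p of 0.476. When M-MDSC were fitted alone the limma adjusted p was 0.0247, while edgeR on all libraries gave 0.193 and DESeq2 0.118. Of the 10 members, 4 thus had groups that did not overlap in M-MDSC (Bcl2 and the 3 A1 copies), where 23.1% of all genes tested did. The A1 copies are near-identical and not 3 separate observations. With them summed the family has 8 rows, of which only Bcl2 and the sum did not overlap, a share near that of all genes.

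The remaining 6 members overlapped between M-MDSC Ctrl and LD. Mcl1 had 10992, 11459 and 10789 normalized counts in Ctrl and 9411, 11219 and 11519 in LD, a log2 difference of -0.05 ± 0.10 (95% interval -0.26 to 0.16). That of Bcl2l1 was 0.08 ± 0.16, that of Bcl2l11 -0.00 ± 0.11 and that of Bid -0.12 ± 0.15. Among the effectors it was 0.00 ± 0.23 for Bax and 0.24 ± 0.20 for Bak1. Limma adjusted p ran from 0.755 to 1.0 for these 6 genes. The median log2 difference of the 10 members was 0.16, against -0.04 over all genes tested.

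Marker genes of other cells moved in the same M-MDSC libraries as Bcl2a1b. The summed level of 8 progenitor markers ran from 517.5 to 612.6 in M-MDSC Ctrl and from 2011 to 7747 in LD, where 5 of the 8 rose. The largest part of the LD sum was Mpo, at 93.5 ± 23.4 in Ctrl and 2191 ± 1904 in LD. Flt3, the largest part in Ctrl, was at 310 ± 54.3 and 276 ± 97.7. The sum of 8 cycling markers ran from 1133 to 1398 and from 3847 to 12970 (7 of 8 rose). That of 12 neutrophil markers ran from 8221 to 9585 and from 19220 to 83127 (7 rose, 1 fell). The sum of the 10 monocyte markers ran from 95475 to 114166 in M-MDSC Ctrl and from 66130 to 87024 in LD, with 0 of 10 called. Bcl2a1b itself stood at 82.7 to 107.4 in the PMN-MDSC LD libraries, below each M-MDSC LD library. The part of progenitor, cycling and neutrophil-like cells in the rise was not tested. Among 7 markers of B cells, which also express A1, the sum ran from 54.5 to 85.2 in M-MDSC Ctrl and from 34 to 62 in LD. Most of the LD sum was Cd79b, at 41.5 ± 4.7 in Ctrl and 41.7 ± 17.6 in LD, while 4 of the 7, among them Cd79a, Ms4a1 and Pax5, were at 0 in all 3 LD libraries.

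**Figure D2:**
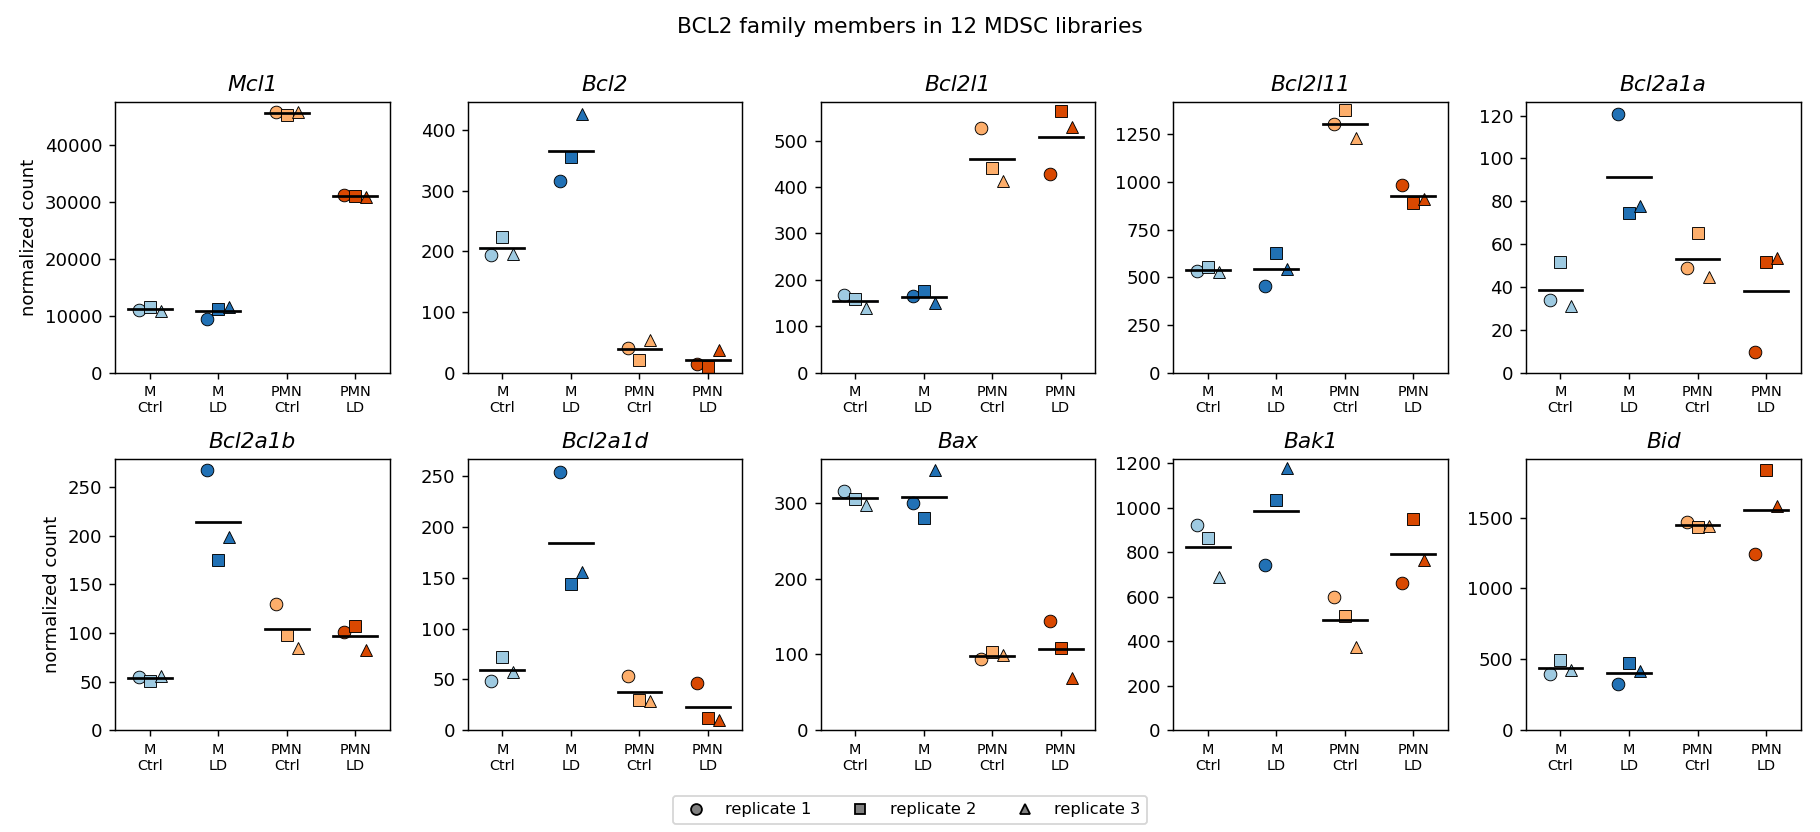
Normalized counts of each member in every library, by group (points, linear axes from 0; bars mark the mean of 3 libraries). In M-MDSC the LD points of the 3 A1 copies and Bcl2 lie above all Ctrl points, and in PMN-MDSC the LD points of Mcl1 and Bcl2l11 lie below and those of Bak1 above all Ctrl points.

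In PMN-MDSC, Mcl1 and Bcl2l11 fell and Bak1 rose after LD, 3 of 10 members, where 15.7% of all genes tested passed (7.17% higher, 8.51% lower). The other 7 did not pass the test. Mcl1 had 45734, 45248 and 45716 normalized counts in Ctrl and 31102, 31029.7 and 30807 in LD. The libraries within each group lay close together and the groups were far apart. The log2 difference was -0.56 ± 0.10, 1.47-fold lower, with a limma adjusted p of 0.00252. Even so, the PMN-MDSC LD libraries kept more Mcl1 than any M-MDSC library.

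Bcl2l11, whose product BIM binds MCL1 and neutralizes it, lay lower as well. It had 1305, 1376 and 1231 normalized counts in PMN-MDSC Ctrl and 983.3, 891.4 and 910.1 in LD, with no overlap. The log2 difference was -0.49 ± 0.11, 1.40-fold lower (limma adjusted p = 0.0112). Across the 12 libraries, after the mean of each population was subtracted, Mcl1 and Bcl2l11 had a Pearson r of 0.93 on the log2 scale. These libraries share groups and scaling, so the value describes them only.

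Bak1, an effector that resides in the outer mitochondrial membrane and is held there by MCL1 and BCL-XL, rose. It had 599.8, 515.1 and 371.9 normalized counts in PMN-MDSC Ctrl and 660.0, 947.2 and 765.7 in LD. The lowest LD library lay just above the highest Ctrl library. The log2 difference was 0.69 ± 0.20, a 1.61-fold rise with a limma adjusted p of 0.0329. This call was lost without PMN-MDSC Ctrl replicate 3 (0.49, adjusted p = 0.155), PMN-MDSC Ctrl replicate 2 (0.0658), PMN-MDSC LD replicate 2 (0.115) or PMN-MDSC LD replicate 3 (0.0704), and with no minimum level (0.0578). Bak1 shares 17.1% of its 50-base stretches with Ggnbp1 on the opposite strand, which averaged 32.4 ± 9.4 in PMN-MDSC Ctrl and 25.3 ± 18.1 in LD. Strandedness is not given, so these counts do not show to which gene reads of the overlap went. Their part in the Bak1 rise was not tested. Bid likewise shares 16.4% of its stretches with Bcl2l13 on the opposite strand.

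Leaving out replicate 1 of both LD groups kept these calls. Mcl1 then had a log2 difference of -0.56 (limma adjusted p = 4.2e-04), Bcl2l11 -0.53 (0.00296) and Bak1 0.81 (0.00789). The 3 members without overlap in PMN-MDSC are the ones that passed, where 31.9% of all genes did not overlap. Beside them, the sum of the 12 neutrophil markers ran from 491482 to 517577 in PMN-MDSC Ctrl and from 795798 to 895405 in LD. Of these markers 5 rose and 2 fell: Csf3r, the receptor for the neutrophil growth factor G-CSF, averaged 160134 in Ctrl and 98751 in LD, and Il1b 33528 and 23553. The progenitor sum ran from 217.1 to 292.1 and from 347.1 to 1023, and the B cell sum from 75 to 167.3 and from 7.4 to 13.5. Their part in the changes of Mcl1, Bcl2l11 and Bak1 was not tested.

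Bcl2l1 and the A1 copies did not pass in PMN-MDSC. Bcl2l1, which encodes the longer-lived survival protein BCL-XL, had 527.4, 442.1 and 413.4 in Ctrl and 428.8, 563.3 and 530.1 in LD, a log2 difference of 0.14 ± 0.16. Bcl2a1b had 129.6, 98.4 and 84.6 in Ctrl and 101.4, 107.4 and 82.7 in LD, a log2 difference of -0.09 ± 0.24. The summed copies had 231.6, 193.4 and 158 in Ctrl and 156.9, 170.6 and 145.8 in LD, a log2 difference of -0.28 ± 0.21. All of these groups overlapped.

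The lowest members gave the least certain values. Bcl2 in PMN-MDSC had 39.8, 20.2 and 54.3 normalized counts in Ctrl and 13.5, 8.8 and 37.9 in LD, the last 3 resting on 10, 6 and 27 reads. Its log2 difference was -1.04 ± 0.44 with a limma adjusted p of 0.127. Bcl2a1d had 53.0, 29.9 and 28.7 in Ctrl and 46.0, 11.8 and 9.8 in LD (34, 8 and 7 reads), a log2 difference of -0.98 ± 0.49 with an adjusted p of 0.195. Each passed when 1 library was left out: Bcl2 without PMN-MDSC LD replicate 3 (-1.60, adjusted p = 0.0173) and Bcl2a1d without PMN-MDSC LD replicate 1 (-1.64, 0.0102). Bcl2a1a had 49.0, 65.0 and 44.7 in Ctrl and 9.5, 51.5 and 53.3 in LD, a log2 difference of -0.78 ± 0.53 that was 0.0041 without PMN-MDSC LD replicate 1.

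Bid and Bax stayed within their spread. Bid, which links death receptors to the mitochondria once caspase-8 cuts it, had 1465, 1432 and 1443 in PMN-MDSC Ctrl and 1246, 1836 and 1582 in LD, a log2 difference of 0.09 ± 0.15. Bax, the effector that moves from the cytosol to mitochondria, had 93.8, 102.8 and 99.0 in Ctrl and 144.7, 108.8 and 68.7 in LD, a log2 difference of 0.06 ± 0.23. For both genes the 3 LD libraries reached below and above all Ctrl libraries. The median log2 difference of the 10 members in PMN-MDSC was -0.29, again with the A1 copies counted as 3, against -0.05 over all genes tested.

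**Figure D3:**
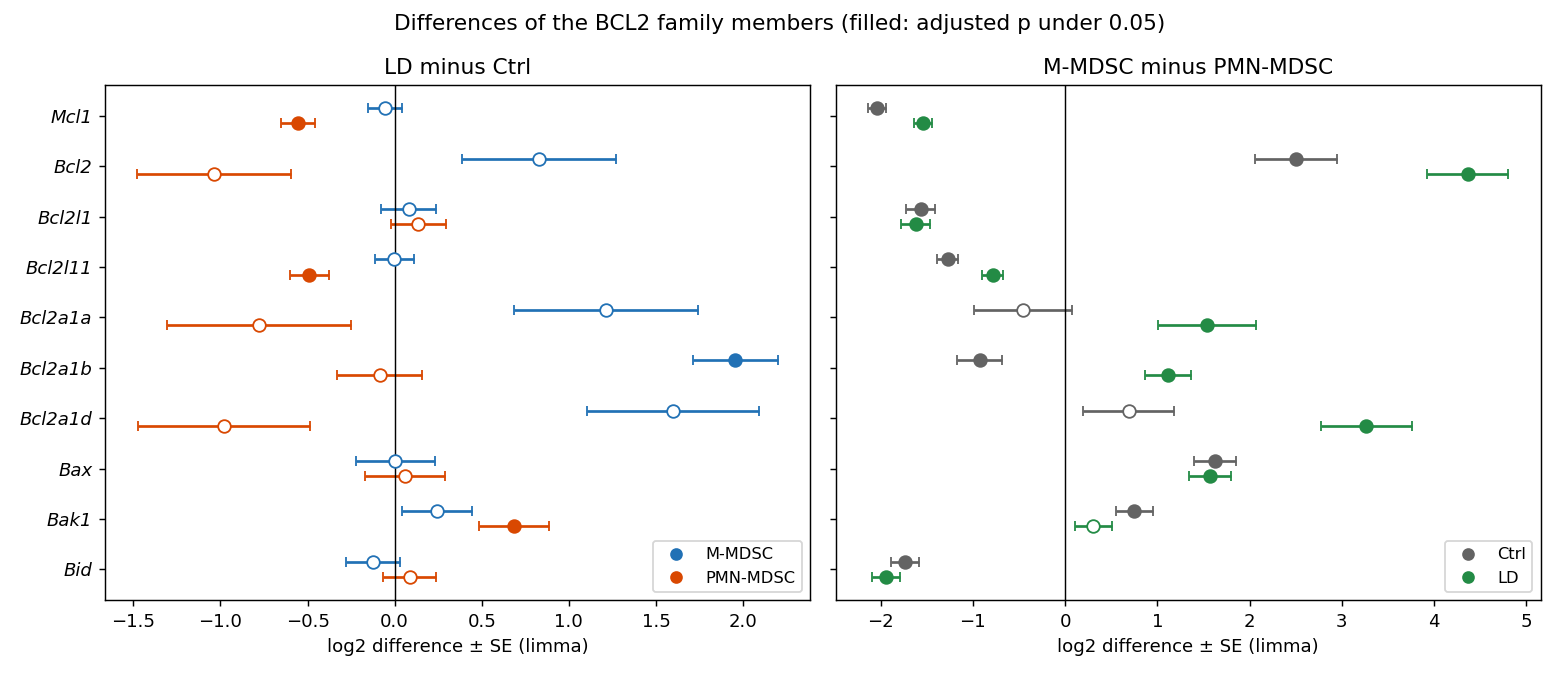
Log2 differences of the 10 members with their SE in the LD comparisons of each population and between the populations in Ctrl and LD. Filled points passed at a limma adjusted p below 0.05. In the LD comparisons the A1 copies and Bcl2 lie above 0 in M-MDSC and below 0 in PMN-MDSC.

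Whether the LD change differed between the populations was tested as the M-MDSC change minus the PMN-MDSC change. Bcl2a1b was the 1 member of 10 that passed, where 2.25% of all genes tested passed (1.18% higher, 1.07% lower). Its difference was 2.04 ± 0.35 on the log2 scale, 4.12-fold (limma adjusted p = 0.0089). The summed copies gave 1.95 ± 0.29, 3.85-fold, with an adjusted p of 0.00586. Of the members that had passed in PMN-MDSC, Mcl1 gave 0.50 ± 0.14 (adjusted p = 0.0732), Bcl2l11 0.49 ± 0.16 (0.125) and Bak1 -0.44 ± 0.28 (0.44). A population-specific change of these 3 genes was therefore not shown. Without replicate 1 of both LD groups, Mcl1 (0.00784), Bcl2l11 (0.0183) and Bcl2a1d (0.00641) passed as well, and the summed copies gave 1.73 (0.00417). Single libraries also decided this: Mcl1 (0.0238) and Bcl2l11 (0.041) passed without M-MDSC LD replicate 1, Mcl1 (0.0419) and Bcl2a1d (0.00379) without PMN-MDSC LD replicate 1, and Bcl2 (0.0342) without PMN-MDSC LD replicate 3. Bcl2a1d had the largest value of the 10, 2.58 ± 0.70 (0.0696), followed by Bcl2a1b, Bcl2a1a at 1.99 ± 0.75 (0.178) and Bcl2 at 1.86 ± 0.63 (0.131).

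The populations themselves were compared in Ctrl and in LD mice, to see how monocytic and neutrophil-like cells differ in this family. In Ctrl 8 of 10 members differed, against 75.6% of all genes tested (38.8% higher in M-MDSC, 36.8% lower). Bcl2, Bax and Bak1 were higher in M-MDSC, and Mcl1, Bcl2l1, Bcl2a1b, Bcl2l11 and Bid were higher in PMN-MDSC. These shares are close to the background and the genes are described for their sizes. Groups of the same 8 members did not overlap, where 81% of all genes did not.

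Among the survival genes, Mcl1 was 4.11-fold lower in M-MDSC Ctrl than in PMN-MDSC Ctrl (log2 difference -2.04 ± 0.10, limma adjusted p = 1.4e-10). Bcl2l1 had 168.0, 157.9 and 139.1 normalized counts in M-MDSC Ctrl and was 2.95-fold lower there (-1.56 ± 0.16, 3.9e-07). Bcl2 went the other way and was 5.66-fold higher in M-MDSC Ctrl (2.5 ± 0.44, 1.3e-04). Bcl2a1b was 1.90-fold lower (-0.93 ± 0.24, 0.00326), while Bcl2a1a and Bcl2a1d did not pass and the summed copies differed by -0.35 ± 0.21 (0.137).

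The activators were both lower in M-MDSC Ctrl. Bid, with 394.9, 492.8 and 421.3 normalized counts there, was 3.32-fold lower than in PMN-MDSC Ctrl (-1.73 ± 0.15, limma adjusted p = 1.0e-07). Bcl2l11, with 535.0, 555.0 and 525.6, was 2.42-fold lower (-1.27 ± 0.11, 1.1e-07). The effectors were both higher. Bax, with 315.2, 305.2 and 296.8, was 3.08-fold higher (1.62 ± 0.23, 1.4e-05), and Bak1, with 921.5, 863.1 and 686.1, was 1.68-fold higher (0.75 ± 0.20, 0.0036).

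In LD mice 9 of 10 members differed between the populations, against 74.8% of all genes tested (38.8% higher in M-MDSC, 36.1% lower). The same 9 members had groups without overlap, against 75.2% of all genes. All 3 A1 copies were higher in M-MDSC LD than in PMN-MDSC LD. Bcl2a1b, lower in M-MDSC Ctrl, was 2.17-fold higher in M-MDSC LD (1.12 ± 0.24, limma adjusted p = 8.0e-04), Bcl2a1d 9.62-fold (3.27 ± 0.49, 2.9e-05) and Bcl2a1a 2.90-fold (1.54 ± 0.53, 0.0166). The Bcl2a1a call was lost without M-MDSC LD replicate 1 (0.0619), without PMN-MDSC LD replicate 1 (0.75, 0.0674) and without both (0.53, 0.216). The summed copies were 3.02-fold higher in M-MDSC LD (1.60 ± 0.21, 6.0e-06).

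Most other members kept their Ctrl order in LD mice. Mcl1 was 2.90-fold lower in M-MDSC LD (-1.54 ± 0.10, limma adjusted p = 3.0e-09), Bcl2l1 3.07-fold lower, Bid 3.85-fold lower and Bcl2l11 1.72-fold lower. Bcl2 was 20.6-fold higher (4.36 ± 0.44, 4.5e-07), a ratio whose lower side rests on the few reads given above. Bax was 2.97-fold higher. Bak1 was the exception, with 741.8, 1036 and 1177 normalized counts in M-MDSC LD and a log2 difference of 0.31 ± 0.20 (0.18). It passed without M-MDSC LD replicate 1 (0.50, 0.0358) and with a replicate block by treatment and number (0.31, 0.0355).

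Genes whose pattern over the 12 libraries was most like that of a changed member were found by Pearson r on log2 levels after the mean of each population was subtracted. For Mcl1 they were Gab2 (r = 0.98), Mef2d (0.968) and Cyp2r1 (0.968). Gab2, a signalling adaptor, averaged 3137 ± 45 in PMN-MDSC Ctrl and 2080 ± 44.5 in PMN-MDSC LD. For Bcl2l11 they were Mprip (0.95), Slc43a2 (0.931) and Metrnl (0.931). For Bcl2a1b they were Igf2r (0.981), Cd300e (0.959) and Irg1 (0.93). Cd300e, an activating receptor of monocytes, averaged 57.8 ± 13.1 in M-MDSC Ctrl and 362 ± 127 in M-MDSC LD. For Bak1 they were Ywhag (0.953), Tagln2 (0.949) and Tap2 (0.929). Bcl2a1b and Bcl2a1d had an r of 0.74 with each other.

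The promoters of the A1 copies are shown because the sum of these copies rose in M-MDSC LD. The 250 bases before each RefSeq start site (GRCm38.p6) were searched on both strands for a PU.1 core (GAGGAAGT), an AP-1 site (TGAGTCA), a CRE (TGACGTCA) and a FOXO site (TGTTTAC), none of which contains another. The PU.1 core was chosen after the sequences were seen. The members have 13 promoters in this table, some genes more than 1. The PU.1 core stood in 4 of the 13 (1 each of Bak1 and the 3 A1 copies, which are near-copies of each other) and in 2.441% of 32851 mouse promoters. FOXO stood in 1 of the 13, of Bcl2l11 (3.166% of all promoters), and AP-1 (4.463%) and CRE (1.546%) in 0. The windows around the PU.1 core, in capitals, are chr9:88956786-88956875 (plus strand) for Bcl2a1a, chr9:89199095-89199184 (plus strand) for Bcl2a1b and chr9:88731895-88731984 (minus strand) for Bcl2a1d.
Bcl2a1a: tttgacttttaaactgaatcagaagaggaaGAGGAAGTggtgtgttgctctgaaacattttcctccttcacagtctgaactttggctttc
Bcl2a1b: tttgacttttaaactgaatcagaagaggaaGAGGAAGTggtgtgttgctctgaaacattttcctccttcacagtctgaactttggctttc
Bcl2a1d: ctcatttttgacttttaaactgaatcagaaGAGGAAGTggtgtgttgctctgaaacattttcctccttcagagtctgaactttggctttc
The core starts 104 bases before the RefSeq start site in Bcl2a1a and Bcl2a1d and 148 bases before it in Bcl2a1b. The printed windows of Bcl2a1a and Bcl2a1b are identical, so their unlike distances reflect where that start is annotated. A PU.1 match is a description of letters and not a site shown to be bound.

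The rest of the apoptosis pathway was read from lists written beside the members. Of 17 other BCL2 family genes, 10 passed the minimum level. Of these 10, 0 passed the limma test in either LD comparison or in the difference, with 1 gene at an unadjusted p under 0.05 in each. Over all genes tested, 3.01% passed in M-MDSC, 15.7% in PMN-MDSC and 2.25% in the difference. In the same order, 1461, 3430 and 2000 of 11122 genes had an unadjusted limma p under 0.05. With so few genes, 0 calls do not show that the list was unchanged. Other tools called 0 of the 10 as well, except Bcl2l13 in PMN-MDSC with DESeq2 (0.47, adjusted p = 0.0359). Without replicate 1 of both LD groups Bcl2l13 also passed there with limma (0.60, adjusted p = 0.0135). The BH3-only gene Bbc3 (PUMA), a p53 target, averaged 193 ± 23.7 in M-MDSC Ctrl, 203 ± 28.2 in M-MDSC LD, 207 ± 27.0 in PMN-MDSC Ctrl and 175 ± 36.2 in PMN-MDSC LD. Pmaip1 (NOXA), which binds MCL1 and speeds its loss, averaged 912 ± 96.1, 1116 ± 140, 2558 ± 869 and 3185 ± 578 in the same order. Bmf had a log2 difference of -1.34 ± 0.66 in PMN-MDSC (adjusted p = 0.183), and Bok was under the minimum level.

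Between the populations in Ctrl 8 of those 10 genes differed, 3 higher and 5 lower in M-MDSC, a share near the 75.6% of all genes. Pmaip1 was 2.69-fold lower in M-MDSC Ctrl (-1.43 ± 0.21, limma adjusted p = 2.3e-05), Bnip3, a mitophagy receptor, 5.81-fold lower (-2.54 ± 0.23, 1.3e-07) and its relative Bnip3l 1.45-fold lower (-0.54 ± 0.10, 2.1e-04). Bcl2l2 (BCL-W), a survival gene, was 7.13-fold higher (2.83 ± 0.46, 6.4e-05). The same 4 genes had the smallest adjusted p of the list in LD mice, in the same directions.

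Of 20 tested genes of mitochondrial apoptosis, which do not all act downstream of BAX and BAK, 0 passed in M-MDSC with limma. There 3.01% of all genes passed. EdgeR called 1 of the 20, DESeq2 called 1, and 3 had an unadjusted limma p under 0.05. Over all 11122 genes those counts were 423, 727 and 1461. In PMN-MDSC 6 of 20 passed (5 higher, 1 lower), where 15.7% of all genes did. Without replicate 1 of both LD groups 7 passed, and 2462 of all genes. The channel genes of the outer mitochondrial membrane rose together in PMN-MDSC LD: Vdac2, which holds BAK, from 733 ± 77.7 to 1143 ± 82.7 (log2 difference 0.64 ± 0.11, limma adjusted p = 0.00167), Vdac1 by 0.68 ± 0.14 (0.00667) and Vdac3 by 0.57 ± 0.16 (0.0292). Dffa, the inhibitor of the apoptotic nuclease, rose by 1.05 ± 0.29 (0.0269). The caspase inhibitor Birc3 fell by 0.29 ± 0.09 on the log2 scale (0.0384). The median of the 20 genes in PMN-MDSC was 0.16, against -0.05 over all genes. Cycs, which encodes the cytochrome c released through BAX and BAK pores, was 4.47-fold higher in M-MDSC Ctrl than in PMN-MDSC Ctrl (2.16 ± 0.16, 1.8e-08).

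Of 15 genes that control MCL1 or BIM, 0 passed in M-MDSC with limma, where 3.01% of all genes did. In M-MDSC edgeR called 0 and DESeq2 2, and 5 had an unadjusted limma p under 0.05. Over all 11122 genes those counts were 423, 727 and 1461. In PMN-MDSC 4 of the 15 passed, where 15.7% of all genes did. The PMN-MDSC count was also 4 without replicate 1 of both LD groups, where 2462 of all genes passed. The ubiquitin ligase genes Huwe1 (MULE) and Fbxw7, both known to mark MCL1 for breakdown, fell in PMN-MDSC by 0.59 ± 0.09 (limma adjusted p = 9.2e-04) and by 0.39 ± 0.11 (0.0263) on the log2 scale. Mapk3 (ERK1) and Rps6ka1, kinase genes of a route that marks BIM for breakdown, rose there by 0.75 ± 0.11 (8.8e-04) and 0.71 ± 0.12 (0.00222). In M-MDSC these 4 genes lay in the same directions without passing with limma. Huwe1 averaged 5110 ± 319 in M-MDSC Ctrl and 4190 ± 168.5 in M-MDSC LD, and Fbxw7 527 ± 23.7 and 446 ± 32.4. Mapk3 averaged 1274 ± 75.6 and 1425 ± 57.0, and Rps6ka1 2366 ± 242.8 and 2598 ± 83.7. All but Rps6ka1 had M-MDSC groups without overlap, as did 23.1% of all genes. DESeq2 called Huwe1 in M-MDSC (-0.29, adjusted p = 0.0382). Foxo3, a known activator of Bcl2l11, had a log2 difference of -0.20 ± 0.14 in PMN-MDSC (0.338) and was 4.28-fold lower in M-MDSC Ctrl than in PMN-MDSC Ctrl. Of 9 tested genes of death receptor signalling, 0 passed in M-MDSC with limma, where 3.01% of all genes did. EdgeR and DESeq2 called 0 of them there as well, and 0 had an unadjusted limma p under 0.05. In PMN-MDSC 1 passed with limma, the necroptosis effector Mlkl (0.87 ± 0.22, 0.019), where 15.7% of all genes did. Without replicate 1 of both LD groups 2 passed, with Ripk3 as the other (-1.02, 0.029). In the difference between the populations 0 genes of these 3 lists passed with limma or edgeR. An unadjusted limma p under 0.05 was held by 5 of 20, 4 of 15 and 1 of 9, and DESeq2 called 3, 3 and 0. Over all 11122 genes, limma called 250, edgeR 280 and DESeq2 697, and 2000 had an unadjusted limma p under 0.05. Without replicate 1 of both LD groups, limma called 2, 2 and 1 of the lists and 773 of all genes. Whether these changes are particular to PMN-MDSC depends on the test and was not shown.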

How the data were processed

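Total RNA of sorted spleen M-MDSC and PMN-MDSC was sequenced as rRNA-depleted libraries, per the labels' protocols, and all 12 libraries were used. The authors deposited 1 table of normalized counts (a signal: reads per gene divided by 1 size factor per library). Whole reads were recovered from it by dividing each value by the smallest in its library (100% whole within 0.001 reads), giving 8906045 to 16242926 reads per library. Per the submitters' processing notes the build was mm10, with STAR 2.5.3a, HTSeq 0.6.1 and DESeq2 named without roles. Strandedness is not given in the sources used here, so reads of Bid and Bak1 cannot be told from those of Bcl2l13 and Ggnbp1 where these overlap on the opposite strand. Gene counts do not separate splice forms, such as those of Bcl2l1 and Bcl2l11. Reads carry no molecular identifiers. Whether replicates came from different mice is not stated in the labels, and p-values then cover only the spread among these libraries, possibly technical.

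Tests used limma 3.58.1 (R 4.3.3) with values of log2(normalized count + 1), for 11122 genes with a mean of at least 10 over the 12 libraries, with group means, trended empirical Bayes, 8 residual degrees of freedom and two-sided p-values adjusted by Benjamini-Hochberg over all genes of a comparison (threshold 0.05). Fold changes are on that scale, which understates low genes. Alternatives were pseudocounts of 0.5 and 8, no minimum or a mean of 50, TMM and upper-quartile scaling, edgeR 4.0.16 and DESeq2 1.42.0 on the recovered reads, robust fits, sample weights, each population alone, summed A1 copies, replicate blocks and each library left out. Leaving out replicate 1 of both LD groups, also for the summed copies and the lists, was chosen after seeing the data.

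Members and lists were chosen with earlier results of these data known. Named genes are all members, up to 4 genes of the other BCL2 family and mitochondrial lists with the smallest adjusted p per comparison, Bbc3, Pmaip1, Bmf, Bcl2l2 and Bok, the 3 genes most like each member changed by LD, and markers. Other genes of the mitochondrial, MCL1 and BIM control and death receptor lists were named after their values were seen, and some listed genes are counted but not reported by name here. Transcripts were read from GENCODE M21 and promoters from RefSeq, and all 10 members matched both. Figures were drawn in matplotlib 3.10.9 (Python 3.11.15).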

Additional observations from a re-analysis of the deposited data

Results flagged for a closer look

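The change of Bcl2a1b after LD differed between the populations by 2.04 ± 0.35 on the log2 scale (M-MDSC change minus PMN-MDSC change, limma adjusted p = 0.0089), by a test of the difference itself. Bcl2a1b averaged 53.6 ± 2.5 normalized counts in M-MDSC Ctrl and 214 ± 48.3 in M-MDSC LD, and 104 ± 23.0 and 97.2 ± 12.9 in PMN-MDSC (n = 3 each). All 3 M-MDSC LD libraries lay above every other library, and over 25 alternatives the difference ran from 1.87 to 2.18, with adjusted p of at most 0.0286. In PMN-MDSC the LD libraries lay within the range of the Ctrl libraries or just below it.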

How the results depend on the processing

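Of the 22 member differences that passed, 0 changed sign under any alternative. Bcl2a1b in M-MDSC (1.78 to 2.09, adjusted p of at most 0.00818 over 25 alternatives) and Mcl1 (at most 0.0126) and Bcl2l11 (at most 0.0485) in PMN-MDSC (26 each) passed throughout. Bak1 in PMN-MDSC was lost in 5 of 26. The number of members called in M-MDSC (1 of 10) was 2 with DESeq2, edgeR or a pseudocount of 8, 3 with each population alone or sample weights, and 1 to 3 when a library was left out (3 without PMN-MDSC LD replicate 1). In the difference between populations (1 of 10) it was 4 with DESeq2, sample weights or without replicate 1 of both LD groups, 3 with a replicate block by treatment and number, 2 with a pseudocount of 8 or robust fits, and 1 to 3 with a library left out (3 without M-MDSC LD replicate 1 or PMN-MDSC LD replicate 1, 2 without PMN-MDSC LD replicate 3). In PMN-MDSC (3 of 10) it ran from 2 to 4.

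Over all genes, 335 passed in M-MDSC (727 with DESeq2, 976 with sample weights, 192 to 549 with a library left out), and 250 in the difference (697 with DESeq2, 125 with no minimum, 524 with sample weights, 773 without replicate 1 of both LD groups, 113 to 832 with a library left out). In PMN-MDSC 1745 passed (890 to 2162 with a library left out, the fewest without PMN-MDSC Ctrl replicate 3 and 1101 without PMN-MDSC Ctrl replicate 2). The M-MDSC count was highest without PMN-MDSC LD replicate 1 and lowest without M-MDSC Ctrl replicate 1, and that of the difference highest without PMN-MDSC LD replicate 1 and lowest without PMN-MDSC Ctrl replicate 2. The cause of these shifts was not tested.

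Log2 differences that changed sign were all from members that had not passed. Without replicate 1 of both LD groups, Bax was 0.21 in the difference and -0.19 in PMN-MDSC, Bcl2a1a 0.0041 in PMN-MDSC, and Bcl2l11 0.12, Bid 0.027 and Mcl1 0.037 in M-MDSC. With sample weights, Bax was 0.071 in the difference and -0.043 in PMN-MDSC, and Bcl2l11 0.067 and Mcl1 0.0086 in M-MDSC. In M-MDSC, Bax was -0.010 with TMM and -0.0082 with upper-quartile scaling, and Bcl2l11 was 0.010 with both DESeq2 and edgeR. With a library left out, M-MDSC values ran from -0.078 to 0.071 for Bax, -0.11 to 0.12 for Bcl2l11, -0.24 to 0.027 for Bid and -0.11 to 0.037 for Mcl1. PMN-MDSC values ran from -0.19 to 0.35 for Bax, -1.18 to 0.0041 for Bcl2a1a, -0.22 to 0.081 for Bcl2a1b and -0.043 to 0.24 for Bid, and differences from -0.34 to 0.19 for Bax and -0.17 to 0.024 for Bcl2l1. The cause was not tested. Upper-quartile scaling moved the median of all genes between the populations in Ctrl from 0.06 to -0.12, and no called member changed sign with it.

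Whether replicate numbers pair the samples is not given in the labels. Deviations from the group mean correlated by -0.102 to 0.208 between same-numbered libraries, so no pairing was assumed. Between the LD groups, however, they correlated by 0.208, 0.125 and 0.068 for numbers 1, 2 and 3, each the highest value for its library (other numbers -0.156 to 0.053), a hint from the data and not the design. A replicate block by number left the member counts at 1, 3, 1, 8 and 9 and called 373, 1657 and 213 genes in M-MDSC, in PMN-MDSC and in the difference. A replicate block by treatment and number called 536 genes in the difference, with Mcl1 (adjusted p = 0.0477) and Bcl2a1d (0.0241) beside Bcl2a1b, and 10 of 10 members between the populations in LD.

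Depth limits Bcl2 and Bcl2a1d in PMN-MDSC LD, which rested on 6 to 34 reads per library, and the A1 copies are uncertain one by one.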
